A study of Mus musculus with 2 samples.

Results

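The UDP-glucuronosyltransferases (Ugt), the glutathione S-transferases (Gst) and the sulfotransferases (Sult) are the main conjugating enzymes of the hepatocyte. They were followed here through the hepatocyte clusters of mouse liver. The members were all genes whose symbol began with Ugt, Gst or Sult and that had a row in either of the deposited tables of cluster markers. There were 14 of them, 8 Ugt, 4 Gst and 2 Sult genes, among the 2783 genes of both tables. The GENCODE M21 annotation of the mouse genome GRCm38 (mm10) holds 66 protein-coding genes with such symbols, of which 22 are Ugt, 23 Gst and 21 Sult genes, so 52 had no row.

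Primary hepatocytes came from fasted wild type BALB/c mice that received either PBS or recombinant IL-33 (rIL-33, 0.5 µg) by intraperitoneal injection, once daily for 5 days. The mice were male and 8 to 10 weeks old, their number per library is not given in the sources used here, and the cells were freed by enzymatic perfusion of the liver. Each condition gave 1 droplet library, 2 in all, in which a short stretch near the 3′ end of each transcript was read. The tables pool the cells of both libraries and compare clusters of cells, so PBS and rIL-33 could not be set against each other, no spread between replicates exists, and no test was run on any value below. Every share below therefore mixes cells of both conditions.

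UDP-glucuronosyltransferases sit in the membrane of the endoplasmic reticulum and transfer glucuronic acid from UDP-glucuronic acid to bilirubin, steroids, bile acids and drugs. Soluble glutathione S-transferases join glutathione to reactive electrophiles, and cytosolic sulfotransferases transfer sulfate from the donor PAPS to steroids, bile acids and catecholamines. The conjugates are more soluble in water and leave the hepatocyte through membrane transporters into bile or blood. In the liver lobule, many of these genes are known to be expressed more strongly near the central vein than near the portal tract.

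In the table of hepatocytes, 5 clusters are each set against the remaining hepatocytes. In the table of all cells, 12 clusters are each set against everything else. A row holds, for the cluster and for its reference, the percentage of cells with a value above 0 for the gene, called its share here. Below, detected means only such a value. For many genes the share in the same cluster differed between both tables, as given near the end. A share rises with the number of transcripts counted per cell, which is unknown here. A gene is called listed for a cluster when it has a row. Every row had a log2 fold change of at least 0.25 in favour of the cluster. It also had a share of at least 25.0% in the cluster, in the reference or in both. A gene without a row can therefore still be expressed. All 5 hepatocyte markers checked (Alb, Ttr, Apoa1, Serpina1c and Fgb) had a row in the table of hepatocytes, and 0 of 37 markers of other liver cell types had one. That table sets hepatocytes against each other, so these counts do not measure how pure the clusters are. Hepatocyte1 made up 55.6% of the hepatocytes, Hepatocyte2 14.9%, Hepatocyte3 10.1%, Hepatocyte4 18.1% and Hepatocyte5 1.47%, as computed from the balance of the shares. The paper reports more Glul, a marker of the central vein, in Hepatocyte1 and Hepatocyte2. It reports more Cdh1, a portal marker, in Hepatocyte4 and Hepatocyte5, and proposes that the clusters reflect position in the liver.

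The sequences shown first lie just before the starts of Ugt2b36 and Ugt2b5, the most widely detected Ugt genes, which are neighbours on chromosome 5. Each is the 150 bases before the start of the gene, read 5′ to 3′ on the strand of the gene, from RefSeq on GRCm38. A window around the start (250 bases before it and 50 after it) was found for 13 of the 14 members, all but Ugt3a2. The capitals mark the longest run of bases that both stretches share, a display chosen after the sequences had been read.
Ugt2b36 (chr5:87092556-87092705, minus strand): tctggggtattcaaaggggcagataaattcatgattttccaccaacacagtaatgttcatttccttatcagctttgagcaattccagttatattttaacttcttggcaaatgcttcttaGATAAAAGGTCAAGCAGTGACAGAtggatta
Ugt2b5 (chr5:87140341-87140490, minus strand): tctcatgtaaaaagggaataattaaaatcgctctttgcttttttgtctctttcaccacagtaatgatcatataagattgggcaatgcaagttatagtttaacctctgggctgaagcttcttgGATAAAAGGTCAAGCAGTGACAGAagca

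The shared run is 24 bases long. It begins 31 bases before the start of Ugt2b36 and 28 bases before that of Ugt2b5. Among the 6 listed Ugt2 genes it was the longest run that any pair shared in these stretches, and for Ugt2a3 the longest run shared with another of them was 7 bases. The Ugt2b genes are copies of each other, and their promoters are not independent examples.

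Both starts of Sult2a8 lie inside the annotated gene. Gsta3 and 1 of the 2 starts of Sult2a8 are shown for the motifs found before them, which stand in capitals.
Gsta3 (chr1:21240435-21240584, plus strand): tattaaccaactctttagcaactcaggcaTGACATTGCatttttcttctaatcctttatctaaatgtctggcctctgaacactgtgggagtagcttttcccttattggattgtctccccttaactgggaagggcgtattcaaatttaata
Sult2a8 (chr7:14438552-14438701, minus strand): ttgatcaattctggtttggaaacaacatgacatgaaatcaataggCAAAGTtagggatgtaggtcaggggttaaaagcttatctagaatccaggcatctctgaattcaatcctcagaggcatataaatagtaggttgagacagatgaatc

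The capitals in Gsta3 are a match to TGACNNNGC, the core of the antioxidant response element through which NRF2 acts on many Gst genes. Of the 15 windows of the members, 1 held it, that of Gsta3, against 12.4% of all 32851 promoter windows of the mouse table. The capitals in Sult2a8 are CAAAGT, the core of the site of HNF4, a transcription factor of hepatocytes. It was found in 4 of the 15 windows, namely those of Gstm1, Gstp1 and both starts of Sult2a8, against 14.4% of all windows. None of the 7 windows of listed Ugt genes held either motif, too few windows to set apart from 14.4% or 12.4%. Only the letters given were searched, so other forms of these sites would be missed. Both motifs were searched on both strands, and a match is a description of letters, not of binding.

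The Ugt genes were listed for Hepatocyte4 and Hepatocyte5 and for no other cluster. All 8 (Ugt2a3, Ugt2b1, Ugt2b5, Ugt2b34, Ugt2b35, Ugt2b36, Ugt3a1 and Ugt3a2) were listed for both, which gave 16 rows. Of all 1604 genes of the hepatocyte table, 54.7% were listed for Hepatocyte4 and 54.3% for Hepatocyte5. Only 10.5% were listed for Hepatocyte1, 3.49% for Hepatocyte2 and 7.67% for Hepatocyte3. Of the 1604, 430 genes were listed for both Hepatocyte4 and Hepatocyte5, 49.0% of the Hepatocyte4 list and 49.4% of the Hepatocyte5 list. Nearly all listed genes had a higher share in the cluster than outside it, 875 of 877 for Hepatocyte4 and 870 of 871 for Hepatocyte5. The Ugt shares had a median of 57.9% in Hepatocyte4, against a median of 9.85% in the other hepatocytes. In Hepatocyte5 the median was 80.1%, against 17.7% in the other hepatocytes. The median difference was 48.0 percentage points in Hepatocyte4 and 63.4 in Hepatocyte5. Over all genes listed for these clusters it was 33.1 and 42.9 points.

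**Figure D1:**
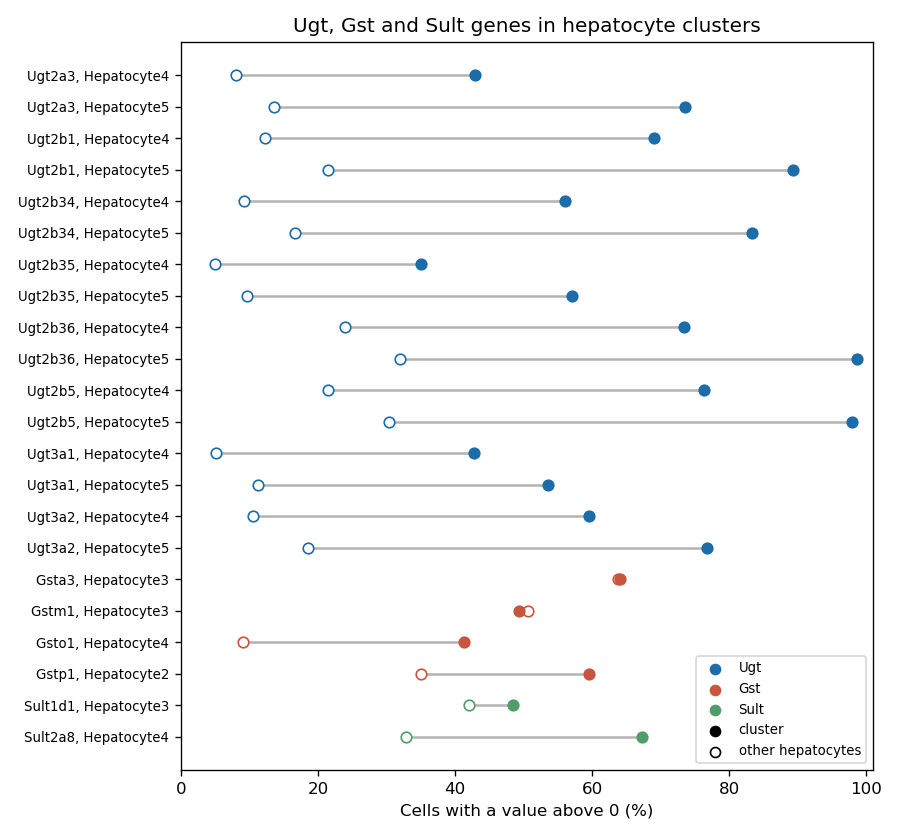
Share of cells with a value above 0 (x axis, %) for each of the 22 rows of the members in the hepatocyte table (y axis, gene and cluster). Filled points are the cluster and open points the other hepatocytes; the Ugt pairs lie 30.1 to 67.9 points apart, and those of Gsta3 and Gstm1 nearly coincide.

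Ugt2b5 and Ugt2b36 were the most widely detected of the family. Ugt2b5 was detected in 76.3% of Hepatocyte4 cells, against 21.4% of hepatocytes outside it. In Hepatocyte5 the share of Ugt2b5 was 98.0%, against 30.4% outside it. Ugt2b36 was detected in 73.4% of Hepatocyte4 cells, against 24.0% of hepatocytes outside it. It reached 98.7% of Hepatocyte5 cells, the highest share of any member, against 32.0% outside. Solving the balance of shares for Hepatocyte1, Hepatocyte2 and Hepatocyte3 as a whole left Ugt2b36 in 22.7% of their cells, and Ugt2b5 was next. The family was therefore also detected outside the clusters for which it was listed.

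Ugt2b1 had the largest difference of the family in both clusters. It was detected in 69.1% of Hepatocyte4 cells, against 12.2% of hepatocytes outside it, a difference of 56.9 points, which ranked 21 of the 877 genes listed for Hepatocyte4. In Hepatocyte5 the share of Ugt2b1 was 89.4%, against 21.5% outside, and the difference of 67.9 points ranked 72 of 871. In the other 3 clusters together Ugt2b1 was detected in 10.8% of cells. Ugt2b34, the neighbour of Ugt2b1 in the locus, was detected in 56.1% of Hepatocyte4 cells against 9.2% of the others. In Hepatocyte5, Ugt2b34 was detected in 83.4% of cells against 16.7% of the others. Its computed share in the remaining clusters was 7.8%. The difference of Ugt2b34 was 46.9 points in Hepatocyte4 and 66.7 points in Hepatocyte5, both above the median of all listed genes.

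The less widely detected members of the locus kept the same order of clusters. Ugt2a3, of a subfamily also known from the intestine, was detected in 42.9% of Hepatocyte4 cells, against 8.0% of hepatocytes outside it. In Hepatocyte5 Ugt2a3 was detected in 73.5% of cells and in 13.5% outside it. Ugt2b35 was the least detected Ugt gene in Hepatocyte4, with 35.1% of cells against 5.0% of the others. Its difference in Hepatocyte4, 30.1 points, was the smallest of the family and lay below the median of all genes listed there. In Hepatocyte5 the share of Ugt2b35 was 57.0%, against 9.7%. The computed share in Hepatocyte1 to Hepatocyte3 was 6.8% for Ugt2a3 and 4.0% for Ugt2b35.

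Ugt3a1 and Ugt3a2 belong to a subfamily whose human enzymes use sugars other than glucuronic acid. They lie next to each other on chromosome 15 of GRCm38, Ugt3a1 from 9276888 to 9315032 and Ugt3a2 from 9335550 to 9370955, with 20.5 kb between them. Ugt3a2 was the more widely detected of the pair, in 59.6% of Hepatocyte4 cells against 10.5% of the others. In Hepatocyte5, Ugt3a2 was detected in 76.8% of cells against 18.6%. Ugt3a1 was detected in 42.7% of Hepatocyte4 cells against 5.1% of the others. Its Hepatocyte5 share of 53.6%, against 11.3%, was the lowest of any Ugt gene in that cluster. The difference for Ugt3a1 in Hepatocyte5, 42.3 points, lay just below the median of all genes listed there and ranked 449 of 871. The computed share in the other 3 clusters was 9.3% for Ugt3a2 and 4.2% for Ugt3a1.

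Each Ugt gene was detected in more Hepatocyte5 than Hepatocyte4 cells. The gap ranged from 10.9 points for Ugt3a1 to 30.6 points for Ugt2a3, with a median of 21.8 points. It was not particular to the family. Of the 430 genes listed for both clusters, 425 (98.8%) had the higher share in Hepatocyte5, with a median gap of 21.9 points. The number of transcripts per cell in these clusters is unknown, and its part in the gap was not tested.

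**Figure D2:**
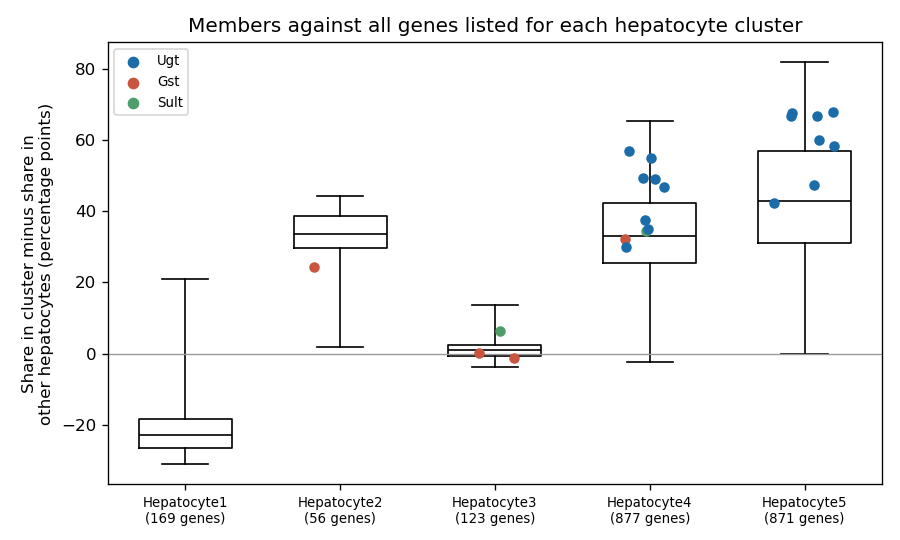
Share in the cluster minus share in the rest of the hepatocytes (y axis, percentage points) for the 5 hepatocyte clusters (x axis, with the number of genes listed). Boxes give the quartiles and whiskers the full range over all listed genes, and points are the members; the Ugt points of Hepatocyte4 and Hepatocyte5 lie from slightly below the box median up to 56.9 and 67.9.

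The 6 listed Ugt2 genes lie within 447.4 kb of chromosome 5, in a locus that holds 10 Ugt2 genes. From Ugt2b34 (86889767 to 86906937) the order runs through Ugt2b1 (86916638 to 86926530), Ugt2b35 (87000860 to 87013275), Ugt2b36 (87065927 to 87092555) and Ugt2b5 (87124960 to 87140318) to Ugt2a3 (87324972 to 87337195). The first 5 follow each other without an unlisted Ugt2 gene between them. Ugt2b37 lies between Ugt2b5 and Ugt2a3 and had no row, and neither had Ugt2b38, Ugt2a1 or Ugt2a2 beyond Ugt2a3. On the minus strand, Ugt2a1 and Ugt2a2 share their 3′ end at 87459490 in the annotation. Whether reads there could be told apart was not tested. Detection did not follow position along the locus. Ugt2b35, the least detected, lies between Ugt2b1 and Ugt2b36, and it is also the only gene of the 6 on the plus strand.

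The locus goes on with 3 sulfotransferase genes, Sult1b1, Sult1d1 and Sult1e1. Only Sult1d1 (87554645 to 87569027) was listed, for Hepatocyte3 and not for Hepatocyte4 or Hepatocyte5. The gap between Ugt2a3 and Sult1d1 is 217.4 kb.

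**Figure D3:**
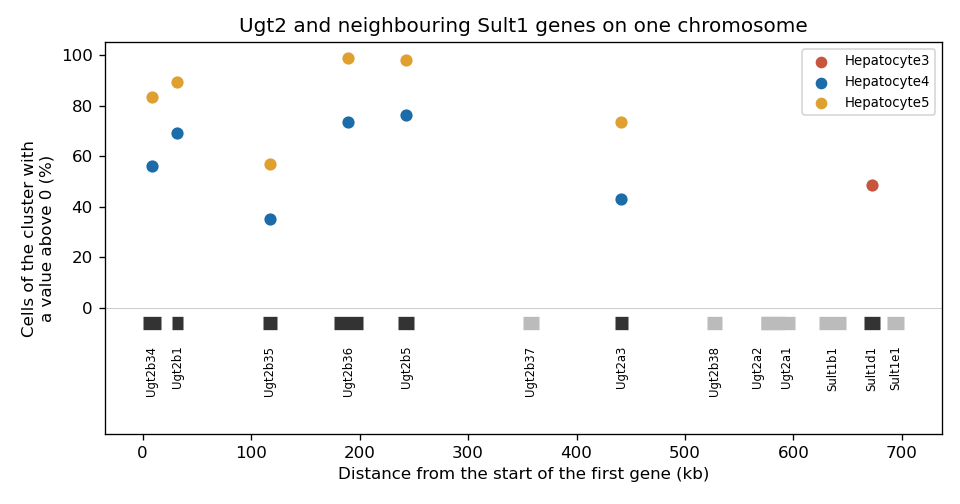
Genes of the chromosome 5 locus along the distance from the start of Ugt2b34 (x axis, kb; black bars listed, grey bars without a row). Points give the share of cells of each listed cluster with a value above 0 (y axis, %); the 6 Ugt2 genes carry Hepatocyte4 and Hepatocyte5 points, and Sult1d1 a Hepatocyte3 point at 48.4%.

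None of the 9 Ugt1a genes, which include the bilirubin-conjugating Ugt1a1, was listed for any cluster. All 9 end in the same last exon in the annotation, so reads near the 3′ end of their transcripts fit every one of them, and a count that keeps only reads of a single gene would not hold them. Whether this set the absence of Ugt1a rows was not tested. For the listed members, each stretch of 89 bases (the length of the transcript read) in the last 500 bases of the longest transcript was looked up in all other annotated genes. For 13 of the 14 members, all Ugt2b genes included, 100% of the stretches were found in that gene alone.

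Gstp1 was the exception. Of its 412 stretches, 281 also occur in Gstp2 or the pseudogene Gstp-ps, which left 31.8% unique, and its values are uncertain for that reason. Gstp1, the pi class transferase, was the only member listed for Hepatocyte2, where 3.49% of the genes of the table were listed. It was detected in 59.5% of Hepatocyte2 cells, against 35.1% of hepatocytes outside it. The difference of 24.4 points ranked 50 of the 56 genes listed for that cluster, below their median of 33.6 points. Gstp1 lies on chromosome 19 from 4035407 to 4037985.

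The alpha and mu class transferases Gsta3 and Gstm1 were listed for Hepatocyte3 with nearly equal shares in and outside the cluster. Gsta3, which in mice conjugates the epoxide of aflatoxin, was detected in 64.1% of Hepatocyte3 cells, against 63.8% of hepatocytes outside it. Gstm1 was detected in 49.4% of Hepatocyte3 cells and in 50.6% of the others, 1.2 points fewer. Sult1d1, which sulfates catecholamines, was listed for the same cluster with 48.4% against 42.1%. Its difference of 6.3 points ranked 7 of 123. Hepatocyte3 listed 7.67% of the genes of the table, with a median difference of 1.0 points, and for 42 of its 123 genes the share was lower in the cluster than outside it. A row needs a higher mean value in the cluster, so for Gstm1 the mean was higher and the share lower, while for Gsta3 the share was 0.3 points higher. Gsta3 lies on chromosome 1 from 21240589 to 21265661 and Gstm1 on chromosome 3 from 108012255 to 108017973.

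Gsto1 and Sult2a8 were listed for Hepatocyte4 and not for Hepatocyte5. Gsto1, an omega class enzyme that reduces dehydroascorbate and shows little conjugating activity, was detected in 41.3% of Hepatocyte4 cells, against 9.0% of hepatocytes outside it. The difference of 32.3 points was close to the median of the 877 genes listed, at rank 457. Sult2a8, which sulfates bile acids, was detected in 67.3% of Hepatocyte4 cells and 32.9% of the others, and its difference of 34.4 points ranked 406. Gsto1 lies on chromosome 19 from 47854970 to 47864790 and Sult2a8 on chromosome 7 from 14410686 to 14446769. Since the limits of the table can hide a gene, the lack of a Hepatocyte5 row does not show that either gene was low there.

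Counted by family, Hepatocyte4 listed 8 Ugt, 1 Gst and 1 Sult gene and Hepatocyte5 listed 8 Ugt genes. Hepatocyte3 listed 2 Gst and 1 Sult gene, Hepatocyte2 1 Gst gene and Hepatocyte1 0 of the 14, where 10.5% of the genes of the table were listed. When the share had also to be at least 20 points higher in the cluster, 10 members were left for Hepatocyte4 and 8 for Hepatocyte5, beside 53.4% and 53.3% of the table. On that rule 1 was left for Hepatocyte2, beside 3.24% of the table, and 0 for Hepatocyte1 and Hepatocyte3, beside 0.0623% and 0.0%. Hepatocyte1 differs from the others in its rows, since 159 of its 169 listed genes had a lower share in the cluster than outside it. Over all hepatocytes, Gsta3 was the most widely detected member with 63.8%, followed by Gstm1 with 50.5%, Sult1d1 with 42.7%, Sult2a8 with 39.1% and Gstp1 with 38.7%. The Ugt genes followed, led by Ugt2b36 and by Ugt2b5 with 31.4%, down to 10.4% for Ugt2b35, with Gsto1 at 14.9%. Shares of different genes also depend on how well each transcript is captured, and their order carries no estimate of error.

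The genes that supply and follow these enzymes were taken from lists of names, and the examples are among the 3 largest differences in share per list and cluster. Over the whole table, 54.7% of the genes with a row were listed for Hepatocyte4 and 54.3% for Hepatocyte5, so each list is also counted over its genes with a row. Of 8 annotated genes of glucuronic acid supply, Hepatocyte4 listed 4, Hepatocyte5 listed 3 and the other clusters 0, and 6 had a row. Ugdh, which makes UDP-glucuronic acid, was detected in 41.2% of Hepatocyte4 cells against 7.7% of the others. Slc35d1, which carries UDP-sugars into the endoplasmic reticulum, was listed for both clusters, with 40.4% against 5.3% in Hepatocyte4 and 58.9% against 10.9% in Hepatocyte5. Gusb, the lysosomal glucuronidase, was listed for Hepatocyte5 with 27.8% against 3.3%.

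Every hepatocyte cluster listed at least 1 gene of the glutathione list, though not always with a higher share in the cluster. Of 24, 4 were listed for Hepatocyte4, 3 for Hepatocyte3 and 1 each for Hepatocyte1, Hepatocyte2 and Hepatocyte5, and 9 had a row. Gclc, the catalytic subunit of the first step of glutathione synthesis, was detected in 63.8% of Hepatocyte4 cells against 16.4% of the others. Gpx1 and Gpx4, peroxidases that consume glutathione, were listed for Hepatocyte3, as were Gsta3 and Gstm1. Gpx1 was detected in 86.8% of Hepatocyte3 cells against 87.4%, and Gpx4 in 56.2% against 58.1%. Txn1, a thioredoxin and the third gene of the list there, was detected in 55.4% against 55.0%. Txn1 was also the only gene of the list in Hepatocyte1, where its share was lower, with 44.0% against 68.9%. Hagh, a glyoxalase that releases glutathione, was listed for Hepatocyte2 with 59.6% against 22.9%.

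Of 13 annotated genes of sulfate supply and use, 5 were listed for Hepatocyte4 and 1 for Hepatocyte5, and 5 had a row. Suox, the mitochondrial sulfite oxidase that yields sulfate, was detected in 43.2% of Hepatocyte4 cells against 6.9% of the others. Slc26a1, a sulfate carrier, was listed for both clusters, with 25.4% against 3.7% in Hepatocyte4 and 63.6% against 6.8% in Hepatocyte5. Of 19 annotated other conjugating enzymes, Hepatocyte4 listed 2, Hepatocyte5 listed 3 and Hepatocyte3 listed 1, and 5 had a row. Slc27a5, which activates bile acids for conjugation with amino acids, was detected in 96.0% of Hepatocyte5 cells against 19.5% and in 54.0% of Hepatocyte4 cells against 13.2%.

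Membrane transporters of conjugates and bile acids were listed for Hepatocyte4 and Hepatocyte5 alone. Of 12, 10 had a row, of which Hepatocyte4 listed 6 and Hepatocyte5 listed 10, beside 54.7% and 54.3% of the table. The Hepatocyte4 count is near the share of the table. The other clusters listed 0, beside 10.5% of the table for Hepatocyte1, 3.49% for Hepatocyte2 and 7.67% for Hepatocyte3. Abcc2, which exports glucuronides and glutathione conjugates into bile, was detected in 91.4% of Hepatocyte5 cells against 14.6%. Abcb11, the bile salt export pump, was detected in 88.1% of Hepatocyte5 cells against 12.3%. Slc10a1, which takes up bile acids from blood, was listed for both clusters, with 83.1% against 20.3% in Hepatocyte4 and 96.7% against 30.7% in Hepatocyte5. Of 30 oxidizing and hydrolysing enzymes that act before conjugation, Hepatocyte4 listed 13, Hepatocyte5 listed 11, Hepatocyte3 listed 3 and Hepatocyte2 listed 1, and 18 had a row. Carboxylesterases, which hydrolyse esters, led in both clusters, with Ces3a in 77.7% of Hepatocyte4 cells against 18.8% and Ces2a in 91.4% of Hepatocyte5 cells against 18.3%. Por, the electron donor of the cytochromes P450, was detected in 98.7% of Hepatocyte5 cells against 31.1%.

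Among 12 transcription factors known to act on conjugation genes, 4 had a row. Hnf4a, Cebpa and Ppara were listed for Hepatocyte4 and Nr1i3 and Ppara for Hepatocyte5, 3 and 2 of these 4, beside 54.7% and 54.3% of the table. Nr1i3, the receptor CAR that responds to foreign compounds, was detected in 70.9% of Hepatocyte5 cells against 21.6%. Ppara was detected in 36.1% of Hepatocyte4 cells against 8.3% and in 53.0% of Hepatocyte5 cells against 12.7%. Nfe2l2, which encodes NRF2 and is named here for the motif above, had no row for a hepatocyte cluster.

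**Figure D4:**
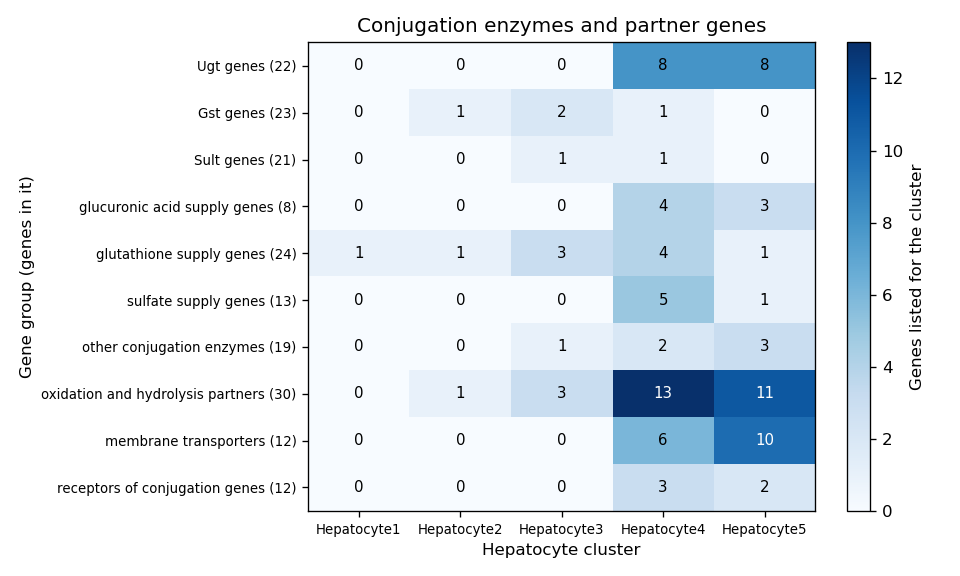
Number of genes listed for each hepatocyte cluster (x axis) among the Ugt, Gst and Sult genes and the lists of partner genes (y axis, with the number of annotated genes in each). Darker cells hold more genes. The Ugt row is filled for Hepatocyte4 and Hepatocyte5 alone (8 each). The glutathione row has a count above 0 in every cluster, in Hepatocyte1 through Txn1 alone, whose share was lower there.

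The table of all cells held rows for the 8 Ugt genes and none for a Gst or Sult gene. All 16 rows were again for Hepatocyte4 and Hepatocyte5, for which 25.2% and 24.7% of the 1755 genes of this table were listed. No member was listed for Hepatocyte1, Hepatocyte2 or Hepatocyte3, for which 1.77%, 0.57% and 2.11% of the genes were listed. Nor was any listed for the immune clusters, where the shares of the table were 28.4% for Kupffer cells, 12.9% for neutrophils, 29.1% for B cells and 34.1% for T cells. The same held for red blood cells (18.2%), endothelial cells (5.58%) and the cluster of stellate cells and fibroblasts (30.5%). A share in cells that should lack the Ugt genes could therefore not be set beside their shares in hepatocytes, and the part of free RNA in the lower shares was not tested.

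The shares of the same gene in the same cluster were not always equal in both tables, a comparison made after the rows were seen. Ugt3a1 was equal within 0.1 points, with 42.7% and 42.8% of Hepatocyte4 cells and 53.6% of Hepatocyte5 cells in both. Ugt2b5 (98.0%), Ugt2b36 (98.7%) and Ugt2a3 (73.5%) were equal in Hepatocyte5. Ugt2b35 was at 35.1% of Hepatocyte4 cells in the table of hepatocytes and at 56.4% in the table of all cells, and in Hepatocyte5 at 57.0% and 83.4%. Ugt2b34 stood at 56.1% and 75.4% in Hepatocyte4 and at 83.4% and 96.7% in Hepatocyte5. Ugt3a2 stood at 59.6% and 75.2%, and at 76.8% and 94.0%. In the reference cells the gap was wider for some genes, such as Ugt2b34 with 9.2% of the other hepatocytes and 39.1% of all other cells, although the latter include cells of other types.

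Of the 825 gene and cluster pairs that both tables list, 115 had shares equal within 0.1 points. In 653 the share was over 1 point higher in the table of all cells, and in 9 it was over 1 point lower, with a median gap of 10.5 points. Of the 16 Ugt pairs, 5 were equal within 0.1 points, 8 were over 1 point higher and 1 was over 1 point lower, with a median gap of 0.95 points. Cluster sizes computed from the table of all cells lay within 0.12 points of those from the hepatocyte table. If the clusters hold the same cells, a value above 0 cannot mean a counted transcript in both tables. Which table departs from that meaning, or whether both do, is unknown. The cause was not tested, and the shares of the hepatocyte table are the ones used above.

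**Figure D5:**
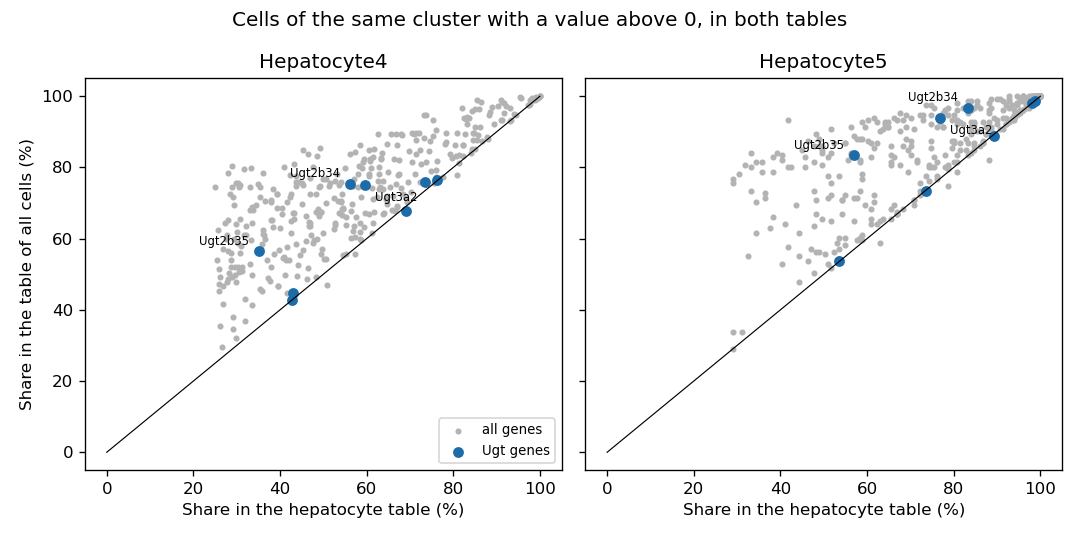
Share of cells of the same cluster with a value above 0 in the hepatocyte table (x axis, %) and in the table of all cells (y axis, %), for every gene that both list for Hepatocyte4 (left) or Hepatocyte5 (right). The line marks equal shares; Ugt2b34, Ugt2b35 and Ugt3a2 lie 13.3 to 26.4 points above it, and the other Ugt genes within 2.6 points of it.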

How the data were processed

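The libraries of liver cells after PBS or rIL-33 were processed by the authors with Cell Ranger on mm10 and with Seurat. They kept cells with 200 to 3000 genes, the upper limit being meant to remove doublets, and with at most 50% mitochondrial content. Counts were scaled to 10000 per cell and log-transformed, and 50 principal components were used for clustering at resolution 5. No doublet caller was run here. The deposited fractions of cells with a value above 0 for a gene, for a cluster and for its reference, were used and are printed as percentages. The deposited log2 fold changes and p-values are the authors' own comparisons of clusters. They were not used, apart from the lowest fold change of each table, which gives its listing limit. Totals per cell and library are unknown, so no interval for counting error is given. Of the hepatocyte rows, 7 whose names are stored as dates were left out.

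Cluster sizes were computed by least squares on the balance of shares over the 486 genes listed for at least 2 clusters and summed to 100.1%. The method was run on simulated shares that were exact apart from rounding, for 2 clusters drawn at random per gene. The real genes differ from these, since 430 of the 486 were listed for both Hepatocyte4 and Hepatocyte5. The simulation therefore does not show how well the sizes of the other clusters are determined. A share over clusters without a row was solved from the fitted sizes. For members with rows in both Hepatocyte4 and Hepatocyte5, the overall share differed by at most 0.06 points between rows. Those members had also entered the fit. Partner genes and markers came from fixed lists, and their named examples were among the 3 genes with the largest share difference per list and cluster. Every Ugt, Gst and Sult gene with a row was named. The members, lists and rules were chosen with earlier results of these data known. Gene positions, exons and transcripts were taken from GENCODE M21 and promoters from RefSeq (GRCm38.p6). The result for 1 planned motif is not reported here. Alternatives were other size fits, stricter share differences and the table of all cells. The tools were NumPy 2.4.6, pandas 2.3.3 and matplotlib 3.10.9 under Python 3.11.15.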

Additional observations from a re-analysis of the deposited data

How the results depend on the processing

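Using rows at least 10 points apart, least absolute deviations or the table of all cells moved a cluster size by at most 0.12 percentage points. Sizes by least absolute deviations or from the table of all cells moved a Ugt share in the clusters without a row by at most 0.1 points. With the table of all cells in place of the hepatocyte table, the members listed fell to 0 for Hepatocyte2 and to 0 for Hepatocyte3. That table had no row for a Gst or Sult gene. The median difference of its 8 Ugt genes in Hepatocyte4 was 37.35 points. In the hepatocyte table it was 48.0 points for the same 8 genes and 42.25 for all 10 members. In Hepatocyte5 the median of the 8 Ugt genes was 53.3 points, against 63.35 in the hepatocyte table. Requiring a share at least 10 or 20 points higher in the cluster left 0 of the 3 members of Hepatocyte3 in either case and kept the counts of Hepatocyte2, Hepatocyte4 and Hepatocyte5. A limit of 90% on the reference share could remove no member, the highest being 63.8%, and Hepatocyte1 had no member to lose, so these 6 alternatives tested nothing. Of the other 46, 40 stayed within 1.5 times the count or within 0.5 points, limits chosen because no replicate spread exists. Most of the 40 were refits of cluster sizes or of shares without a row, which all stayed. The 6 that moved were all counts of members or their median differences, so the 40 do not measure how stable the member results are. No paired analysis was possible because each condition has 1 library and the tables pool both. Leaving out a library was not possible for the same reason. Depth per cell is unknown and limits every comparison of shares between clusters.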
